A study of Mus musculus with 12 samples.

Results

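The genes described here are 34 transcripts of the nephron beyond the proximal tubule, taken from a list and sorted by segment: 8 of the thick ascending limb, 6 of the distal convoluted tubule, 4 of the connecting tubule, 11 of principal cells and 5 of intercalated cells. Each was found on the array through the RefSeq accession of its probe, and all 34 had a probe. Of these, 31 passed the filter, a signal well above background on 2 or more of the 12 arrays, and were tested, among 15226 genes tested in all. Trpv5, Scnn1g and Elf5 did not pass that filter and have no test.

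RNA was measured in mouse glomeruli and in podocytes grown from them, on 12 one-colour arrays in 6 groups of 2. Every mouse, controls included, carried an inducible Cre and floxed alleles of Foxc1 and Foxc2 (Inducible-Cre; Foxc1flox/flox; Foxc2flox/flox), where Foxc1 and Foxc2 are forkhead transcription factors and the Cre is CreERT2, a form that tamoxifen switches on. The number after Foxc in the second allele varies among the labels, and Foxc2 was taken from the title of the series. One pair of groups was isolated glomeruli, from control mice given no agent and from mice injected with tamoxifen daily for 3 days when 8 weeks old, with glomeruli taken on day 7. The other pairs were primary podocyte cultures kept for 4 or for 7 days, either mock-treated or with the active form of the drug. The study asked whether both factors are needed to maintain podocytes in the adult. The age of the control mice and the day their glomeruli were taken are not given. The promoter that drives the Cre is not named in the sources used here. In glomeruli the drug, its injection and any difference in age or day cannot be told apart from the recombination. In culture the drug itself cannot be told apart from the recombination it starts. The glomerular labels name separate mice. The culture labels do not say that the numbered samples were separate cultures, so the spread between them may be technical. Each gene's spread was estimated from all 12 arrays together. Every p-value of that fit, those for glomeruli included, therefore rests in part on the spread between culture samples.

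The thick ascending limb takes up salt without water and so sets up the medullary gradient, and the distal convoluted tubule, connecting tubule and collecting duct then adjust the excretion of sodium, potassium, calcium, magnesium, acid and water under hormonal control. Principal cells of the collecting duct carry the aldosterone-regulated sodium channel and the vasopressin-regulated water channel, while intercalated cells pump protons or secrete bicarbonate. None of these segments belongs to the glomerulus, although the end of the thick ascending limb touches its vascular pole, and in the kidney podocytes are not known as a site of these transport systems.

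Levels are given as log2 of the background-subtracted signal minus the 75th percentile of its array, so a value of 0 lies at that percentile, and differences are log2 differences of group means. A probe's level can be set against the same probe on other arrays, not against another gene. All tests come from 1 limma fit of the 6 group means, whose SE is given; "called" means that the p-value, adjusted after Benjamini-Hochberg across the 15226 genes, was under 0.05. Where every array of a group left a probe short of being well above background, a fold is given as "at least": the brighter group's mean is set against each dim array's lowest signal among probes well above background, or the probe's own signal where higher. Where the brighter group holds a dim array too, that fold is no strict bound and is given without "at least". Arrays had 57.9% to 63.4% of spots well above background, and replicates correlated at 0.983 to 0.99. Foxc2 read 2.10 and 2.24 in control glomeruli and -1.12 and -0.19 after tamoxifen, a called fall (adjusted p = 0.0366). Foxc1 read 2.92 and 2.81 against 0.92 and 1.09, both treated values below both controls, which did not pass (SE 1.69, adjusted p = 0.623). That SE is wide for values so close within groups, since it comes from all 12 arrays. The treated cultures lay far apart for Foxc1, at -5.78 and -1.74 on day 4 and -8.21 and -3.26 on day 7. In culture Foxc2 was called lower by at least 139.4-fold at day 4 and 151.2-fold at day 7, and Foxc1 differed by -7.41 and -9.20 without a call (adjusted p = 0.141 and 0.0569). Whether these probes lie in the deleted parts of the genes is not known here. All 12 podocyte markers were well above background on all 12 arrays. The glomerular arrays shared 1 slide, the day 4 cultures another and the day 7 cultures one more, so each tamoxifen comparison lies within a slide, while slide cannot be told apart from tissue or day. Because the RNA is from bulk samples, a change in the number of cells of a type and a change in RNA per cell cannot be told apart.

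**Figure D1:**
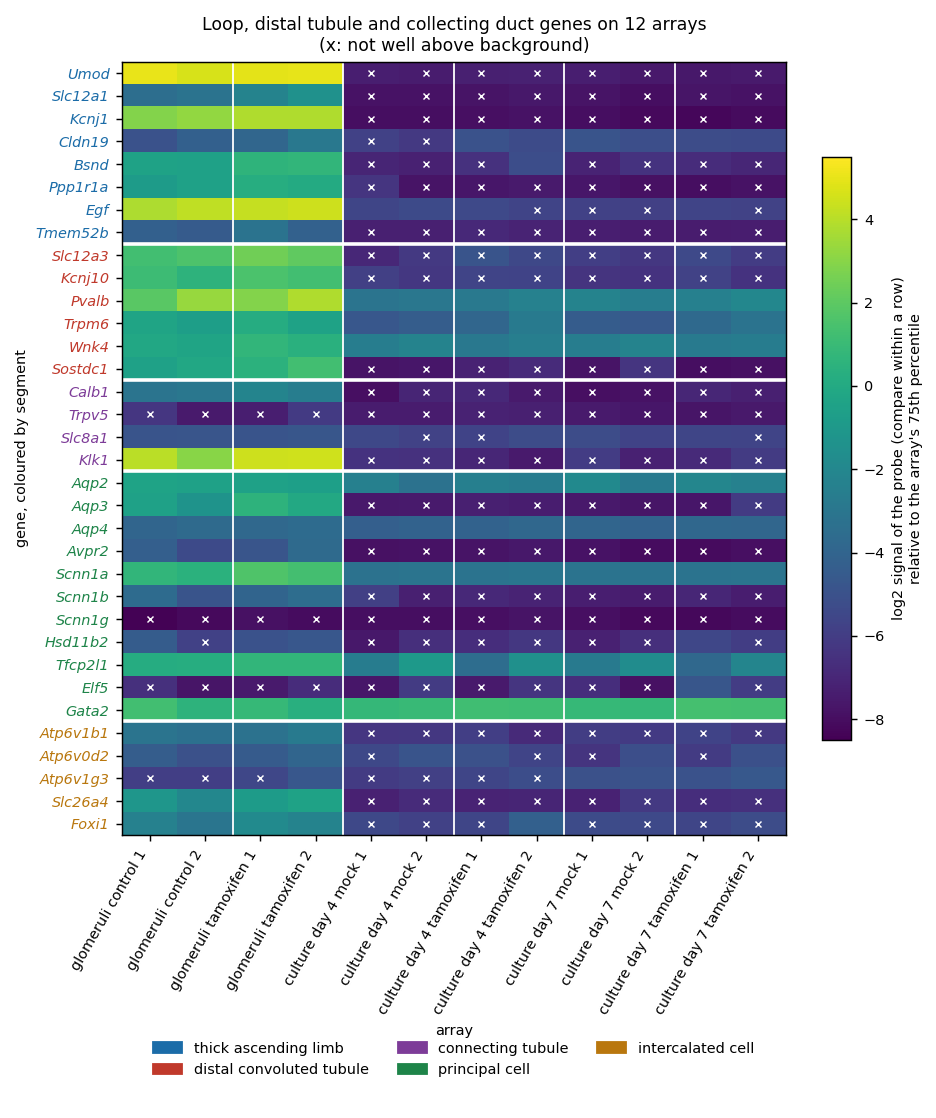
Log2 signal relative to each array's 75th percentile for all 34 genes (rows, grouped and coloured by segment) on the 12 arrays (columns), with a cross where the probe was not well above background; colours are to be compared within a row. In glomeruli 29 of the 31 tested genes were above background on all 4 arrays, and 15 of those 29 were above it on none of the 8 culture arrays.

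In glomeruli, genes of all 5 segments were higher on average after tamoxifen. Of 31 tested members, 29 had a higher mean in treated than in control glomeruli, against 42.7% of all genes tested, and the median difference was 0.67 against -0.05 over all genes. Both treated mice lay above both controls for 19 members (19.9% of all genes did so) and below them for 1, Aqp2 (28.2% of all genes). Only 3 members rose past the test, Slc12a1, Kcnj1 and Scnn1a, where 1.73% of all genes tested were called higher and 2.62% were called at all. None was called lower (0.893% of all genes were), and 13 of 31 had an unadjusted p under 0.05 (18.3% of all genes). Over all genes 263 were called higher and 136 lower, or 267 and 80 when arrays were scaled to their medians.

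The 3 calls were sensitive to which arrays entered the fit. On the 4 glomerular arrays alone no member was called, where 0 of all 15226 genes were. Slc12a1, Kcnj1 and Scnn1a then had limma adjusted p of 0.273, 0.271 and 0.271. In the fit of all 12 arrays Kcnj1 stayed called without control replicate 2 and lost its call without any other single array (adjusted p 0.051 to 0.14). Slc12a1 lost its call without control replicate 1 (0.11) and without any 1 of the 8 culture arrays (0.0518 to 0.0634). Scnn1a lost it without control replicate 2 (0.0523), treated replicate 1 (0.113), any day 4 array (0.0561 to 0.061) or either day 7 tamoxifen array (0.0529). None of the 3 was called with normexp background correction, a fit that spots of non-uniform background shifted on treated mouse 1 and both treated day 4 arrays, whereas without those spots all 3 were called (Slc12a1 0.0319, Kcnj1 0.00883, Scnn1a 0.0114). With a robust, trended variance Scnn1a alone was. For Slc12a1 and Kcnj1 all 8 culture arrays were not well above background, and the spread of those values enters their SE.

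**Figure D2:**
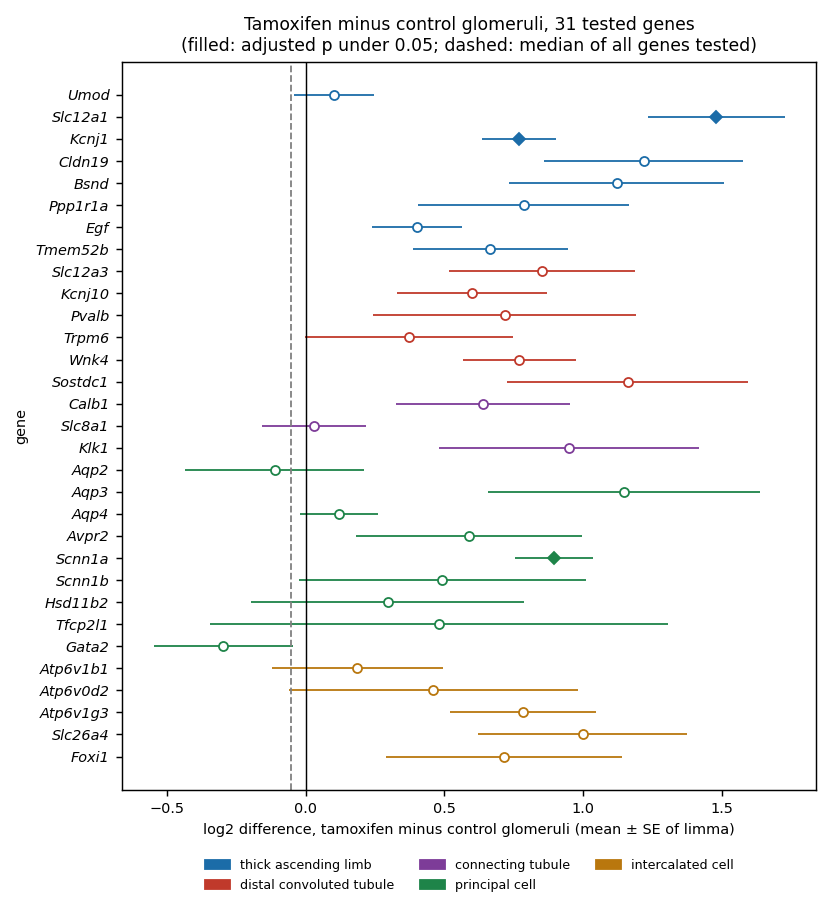
Difference in log2 signal between tamoxifen-treated and control glomeruli for the 31 tested genes, as the mean of 2 mice minus the mean of 2 mice with limma's SE, coloured by segment; filled diamonds mark adjusted p under 0.05 and the dashed line the median of all genes (-0.05). Points lie right of 0 for 29 genes, from 0.03 for Slc8a1 to 1.48 for Slc12a1, and left of it for Aqp2 and Gata2.

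Among thick ascending limb genes the genes of apical salt uptake rose in treated glomeruli, while Umod values overlapped between groups. All 8 members had a higher mean, with a median difference of 0.78, and for 7 of them the treated mice lay above both controls. Over all genes 42.7% had a higher mean and 19.9% lay above both controls. Of the 8, 2 were called, where 1.73% of all genes were called higher. Slc12a1, the apical cotransporter of sodium, potassium and chloride that loop diuretics block, read -3.42 and -3.16 in control mice against -2.22 and -1.39 after tamoxifen. It rose by 1.48 (SE 0.25, adjusted p = 0.031), or 2.79-fold. The size depended on background handling, with a difference of 0.998 under normexp and 0.912 under normexp without non-uniform spots. Kcnj1, the apical potassium channel that returns potassium to the lumen for that cotransporter, read 2.92 and 3.21 in controls against 3.83 and 3.83 after tamoxifen. It rose by 0.77 (SE 0.13, adjusted p = 0.0334), or 1.70-fold, and the groups did not overlap for either gene. Umod, which encodes uromodulin, the protein this segment secretes into urine, read 5.04 and 4.66 in controls against 4.95 and 4.96 in treated glomeruli. Its groups overlapped and its difference was 0.10 (SE 0.15, adjusted p = 0.772).

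The promoter windows of these 3 genes are shown because Slc12a1 and Kcnj1 rose and Umod, of the same segment, overlapped between groups. They run from 250 bases before to 50 bases after the annotated start, 5′ to 3′ on the gene's strand, from RefSeq on GRCm38.p6, with motif matches in capitals. Slc12a1 lies at chr2:125152350-125152649 (plus strand), Kcnj1 at chr9:32393735-32394034 (plus strand) and Umod at chr7:119479213-119479512 (minus strand).
Slc12a1: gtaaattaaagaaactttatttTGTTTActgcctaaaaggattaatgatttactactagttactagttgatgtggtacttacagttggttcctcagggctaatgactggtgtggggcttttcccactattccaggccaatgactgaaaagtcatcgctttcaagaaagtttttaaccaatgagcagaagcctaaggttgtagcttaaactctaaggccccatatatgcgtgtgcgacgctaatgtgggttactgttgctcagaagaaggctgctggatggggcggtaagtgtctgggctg
Kcnj1: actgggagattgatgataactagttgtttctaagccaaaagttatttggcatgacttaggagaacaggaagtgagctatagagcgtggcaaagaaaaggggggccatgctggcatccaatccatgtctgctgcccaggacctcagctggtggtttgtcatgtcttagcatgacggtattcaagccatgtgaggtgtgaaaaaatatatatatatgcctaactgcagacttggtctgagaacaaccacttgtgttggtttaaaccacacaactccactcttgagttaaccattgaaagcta
Umod: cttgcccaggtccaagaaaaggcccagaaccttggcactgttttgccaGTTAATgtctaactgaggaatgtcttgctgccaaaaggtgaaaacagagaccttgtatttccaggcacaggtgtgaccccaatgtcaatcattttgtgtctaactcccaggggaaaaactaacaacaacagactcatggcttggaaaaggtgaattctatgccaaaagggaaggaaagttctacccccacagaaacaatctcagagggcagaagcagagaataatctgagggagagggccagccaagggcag
The letters searched on both strands were TAAACA, the core that forkhead factors bind, and GTTAAT, a half-site of the kidney transcription factor HNF1; the 2 motifs did not overlap in these windows. The Slc12a1 window holds 1 forkhead core, as its reverse complement, at position -228 from the start. Kcnj1 holds neither set of letters, and Umod holds 1 HNF1 half-site at position -202. The promoter table matched 26 of the 34 members, with 31 windows. The forkhead core was in 4 of these 31 windows (12.9%), one each for Slc12a1, Egf, Avpr2 and Atp6v1b1, against 13.4% of all 32851 windows of this length. The HNF1 half-site was in 2 of 31 (6.45%), Umod and Atp6v1g3, against 7.1% of all windows. These are matches of letters and show no binding.

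The other thick limb genes had larger or smaller differences without a call. Cldn19, a claudin of the tight junctions through which calcium and magnesium pass, read -5.00 and -4.22 in controls against -3.88 and -2.90 in treated glomeruli, a difference of 1.22 (SE 0.36, adjusted p = 0.119). Bsnd, barttin, the subunit that brings the basolateral chloride channels to the membrane, read -0.43 and -0.50 against 0.60 and 0.71, a difference of 1.12 (SE 0.39, adjusted p = 0.176). Treated mice lay above both controls for both genes, and for Bsnd alone of the 2 by more than the gaps within groups. Ppp1r1a, an inhibitor of protein phosphatase 1, read -0.80 and -0.48 against 0.23 and 0.07 (difference 0.79, adjusted p = 0.324). Egf, whose kidney precursor is made in the thick limb and distal tubule, read 3.75 and 4.14 against 4.28 and 4.42 (difference 0.40, adjusted p = 0.241). Tmem52b read -4.19 and -4.49 against -3.18 and -4.17 (difference 0.67, adjusted p = 0.261), its lower treated mouse lying close to the higher control. None of these last genes overlapped between groups.

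Distal convoluted tubule genes were higher by mean in treated glomeruli for 6 of 6 members (42.7% of all genes were). Their median difference was 0.74, with no call (2.62% of all genes were called). Under alternatives Wnk4 gained a call with a replicate term for the cultures (adjusted p = 0.0406), and Wnk4 (0.0376), Slc12a3 (0.0189) and Sostdc1 (0.0424) with normexp without non-uniform spots. Slc12a3, the thiazide-sensitive sodium chloride cotransporter, read 1.27 and 1.58 in controls against 2.48 and 2.08 in treated glomeruli, a difference of 0.85 (SE 0.33, adjusted p = 0.23). Wnk4, a kinase that regulates that cotransporter, read -0.12 and -0.33 against 0.72 and 0.37, a difference of 0.77 (SE 0.20, adjusted p = 0.0923). Sostdc1, a secreted antagonist of BMP and Wnt signals, read -0.48 and -0.11 against 0.48 and 1.25, a difference of 1.16 (SE 0.43, adjusted p = 0.211). Kcnj10, the basolateral potassium channel of this segment, read 1.08 and 0.53 against 1.54 and 1.27 (difference 0.60, adjusted p = 0.291). For these 4 genes the treated mice lay above both controls, as for 19.9% of all genes. Pvalb, parvalbumin, a calcium-binding protein of the early part of the segment, read 1.91 and 3.36 against 2.88 and 3.82, its control mice differing by more than its group means. Trpm6, the apical magnesium channel, read -0.33 and -0.66 against 0.16 and -0.41. These last 2 genes overlapped between groups, with differences of 0.72 (adjusted p = 0.476) and 0.37 (adjusted p = 0.662).

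In the connecting tubule 3 of 4 genes were measured and none was called (2.62% of all genes were), with a median difference of 0.64. Klk1, tissue kallikrein, a protease secreted by this segment, read 4.04 and 3.00 in controls against 4.46 and 4.47 in treated glomeruli, a difference of 0.95 (SE 0.47, adjusted p = 0.335). Calb1, the calcium-buffering calbindin, read -3.11 and -2.95 against -2.21 and -2.57, a difference of 0.64 (SE 0.31, adjusted p = 0.33). Treated mice lay above both controls for both genes, as for 19.9% of all genes. Slc8a1, the basolateral sodium and calcium exchanger, which other cells use as well, read -4.89 and -4.80 against -4.88 and -4.75, with overlapping groups and a difference of 0.03 (SE 0.19). Its other probe differed by 0.40. Trpv5, the apical calcium channel, was not well above background on any of the 12 arrays.

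Principal cell genes were mixed. Of 9 tested members 7 were higher by mean, 1 was called, 3 had both treated mice above both controls and 1 had them below, where 2.62% of all genes were called, 19.9% lay above and 28.2% below. The median difference was 0.48. Scnn1a, the alpha subunit of the epithelial sodium channel that aldosterone regulates, read 0.72 and 0.43 in controls against 1.63 and 1.31 in treated glomeruli. It rose by 0.89 (SE 0.14, adjusted p = 0.0269), or 1.86-fold, with no overlap. Its partner Scnn1b, the beta subunit, read -3.61 and -4.85 against -4.00 and -3.48, which overlapped (difference 0.49, adjusted p = 0.677). The gamma subunit, Scnn1g, was not well above background on any array. Aqp2, the vasopressin-regulated water channel of the apical membrane, read -0.40 and -0.49 against -0.50 and -0.62, a difference of -0.11 (SE 0.32, adjusted p = 0.897). Treated values lay below both controls by a margin smaller than the gap within either group. Aqp3, the water channel of the basolateral membrane, read -0.48 and -1.28 against 0.57 and -0.04, a difference of 1.15 (SE 0.49, adjusted p = 0.267) without overlap.

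Aqp4, the other basolateral water channel, read -3.92 and -3.68 in controls against -3.75 and -3.61 in treated glomeruli, overlapping (difference 0.12, adjusted p = 0.718). Avpr2, the vasopressin receptor that controls Aqp2, read -4.28 and -5.37 against -4.79 and -3.69 (difference 0.59, adjusted p = 0.5). Hsd11b2, the enzyme that protects the mineralocorticoid receptor from glucocorticoids, read -4.45 and -5.80 against -4.96 and -4.69 (difference 0.29, adjusted p = 0.808), the second control not being well above background. Both genes overlapped between groups. Among transcription factors of the segment, Tfcp2l1 read 0.19 and 0.25 against 0.70 and 0.70, without overlap (difference 0.48, SE 0.83, adjusted p = 0.815). Its SE is wide for values so close within groups, since it comes from all 12 arrays and the culture replicates of this gene lay far apart. Gata2, which endothelial and other cells also express, read 1.28 and 0.55 against 0.90 and 0.32, overlapping (difference -0.30, adjusted p = 0.594). Elf5, an ETS factor of principal cells, was well above background on 1 array of 12, a day 7 tamoxifen culture at -4.74.

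Intercalated cell genes had higher means in 5 of 5 members, with a median difference of 0.72, 3 of them without overlap and none called. Over all genes 42.7% had a higher mean, 19.9% lay above without overlap and 2.62% were called. One of the 3, Atp6v1g3, was measured on 1 glomerular array only. Slc26a4, pendrin, the chloride and bicarbonate exchanger of bicarbonate-secreting cells, read -1.17 and -2.03 in controls against -0.80 and -0.41 after tamoxifen (difference 1.00, SE 0.38, adjusted p = 0.213). Foxi1, the forkhead factor that intercalated cells need to form, read -2.35 and -3.08 against -1.79 and -2.22 (difference 0.72, adjusted p = 0.424). Neither gene overlapped between groups. The remaining 3 encode subunits of the proton pump. Atp6v1b1 read -3.09 and -3.32 against -3.24 and -2.80 (difference 0.19, adjusted p = 0.808), and Atp6v0d2 read -4.35 and -5.03 against -4.51 and -3.95 (difference 0.46, adjusted p = 0.705). Groups overlapped for both. Atp6v1g3 was not well above background in either control or in treated mouse 1, and read -4.70 in treated mouse 2, so it was measured on 1 of these 4 arrays. The fold over the lowest measurable signal of the controls was 1.68, no strict bound since treated mouse 1 was dim too (adjusted p = 0.167, measured means -5.10 and -5.88).

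A wider list of 56 other genes of the same segments gave 52 tested genes, of which 43 had a higher mean in treated glomeruli, 29 had both treated mice above both controls and 2 below, with a median difference of 0.50. The shares over all genes were 42.7%, 19.9% and 28.2%. Of the 52, 2 were called, both higher, where 2.62% of all genes were called. Tmem72, listed with the distal convoluted tubule, read -4.14 and -3.90 in controls against -2.13 and -2.25 in treated glomeruli and rose by 1.83 (SE 0.13, adjusted p = 0.00448). Cldn8, a claudin that closes the paracellular path of the collecting duct to cations, read -0.26 and -0.11 against 0.77 and 0.70 and rose by 0.92 (SE 0.12, adjusted p = 0.0177). Neither gene overlapped, and neither was above background on any culture array. Of 13 alternatives other than leaving out 1 array, Tmem72 kept its call in 11 and Cldn8 in 10. Both lost it with normexp background correction (adjusted p = 0.228 and 0.383), and Cldn8 with a robust, trended variance (0.063). On the 4 glomerular arrays alone both had an adjusted p of 0.268, and Cldn8 also lost its call without control replicate 1 (0.0592) or treated replicate 1 (0.0769).

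The genes with the largest uncalled differences in the other segments of that list were these. Among genes listed for the thick limb Enpp2, the enzyme autotaxin, read 0.53 and 1.35 against 2.81 and 2.01 (difference 1.47, adjusted p = 0.329). Cldn10, a sodium-selective claudin, read -1.62 and -0.85 against 0.16 and 0.15 (difference 1.39, adjusted p = 0.107). Among genes listed for intercalated cells Car2, a carbonic anhydrase, read -0.15 and 0.52 against 2.28 and 1.49 (difference 1.70, adjusted p = 0.132). Atp6v0a4, a proton pump subunit, read 0.57 and 0.44 against 2.08 and 1.58 (difference 1.33, adjusted p = 0.0975). These 4 genes did not overlap between groups. Car2 was also higher with tamoxifen in culture, at -3.74 and -3.87 against -1.73 and -1.76 on day 4 and -3.64 and -4.44 against -0.89 and -2.45 on day 7. Culture differences of the wider genes listed for intercalated cells ran from -2.52 to 3.01 on day 4 and -2.43 to 3.03 on day 7. Car2 was at neither end. Of the 52 wider genes 0 were called in culture on either day (0.21% and 0.972% of all genes). By mean 36 were higher and 16 lower at day 4, and 27 and 25 at day 7. Among genes listed for the connecting tubule S100g, a calcium-binding protein, read 2.71 and 2.52 in control against 2.54 and 4.00 in treated glomeruli and overlapped (difference 0.65, adjusted p = 0.609). Kcnma1, a potassium channel, was not well above background on any glomerular array.

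Markers of other cell types also differed between these glomeruli. Gata3, Krt18 and Slc4a1 stand both in the wider list above and among these markers (mesangial, parietal and red cell). Over all genes 42.7% were higher by mean, 19.9% lay above both controls, 1.73% were called higher and 0.893% lower. Proximal tubule markers were higher by mean for 15 of 15 genes and without overlap for all 15, with a median difference of 1.52 and 1 called gene, Slc22a6, an organic anion transporter. Their summed signal, in units of each array's 75th percentile, was 114.3 and 134 in controls against 408.5 and 240.9 in treated glomeruli. The summed signal of the 31 members was 90.6 and 84.8 in controls against 119.9 and 126 in treated glomeruli. Treated mouse 1 had the higher proximal sum, while the members' sums of the treated mice were nearly level. Such sums weigh the brightest probes most, Umod and Egf among the members. By mean log2 level, in which each gene counts alike, the treated mice lay between -0.64 and -0.54 for the members. For the proximal markers they lay between 2.90 and 3.84. Podocyte markers were lower by mean for 12 of 12 genes, 2 of them called (Synpo and Thsd7a), with sums of 443.8 and 554.8 against 297.8 and 396.8.

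Endothelial markers were lower for 12 of 12 genes with none called (sums of 376.2 and 317.2 against 268 and 262.9), and mesangial and mural markers higher for 9 of 10 with 1 called, Acta2 (112.5 and 57.8 against 90.4 and 101.2). Parietal epithelial markers were higher by mean for 6 of 8 with none called, although their summed signal was lower (37 and 35.1 against 33.5 and 32.6). Red cell markers were lower for 6 of 6 with 4 called (87.6 and 39.3 against 0.906 and 7.43), and immune markers lower for 8 of 9 with 1 called, Ms4a1 (9.56 and 10.1 against 4.90 and 6.79). Of these lists, all podocyte, proximal, endothelial, mesangial and parietal markers were well above background on all 4 arrays. Beside the calls in these lists stand 1.73% of all genes called higher and 0.893% called lower. The part of any of these cell types in the members' differences was not tested.

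**Figure D3:**
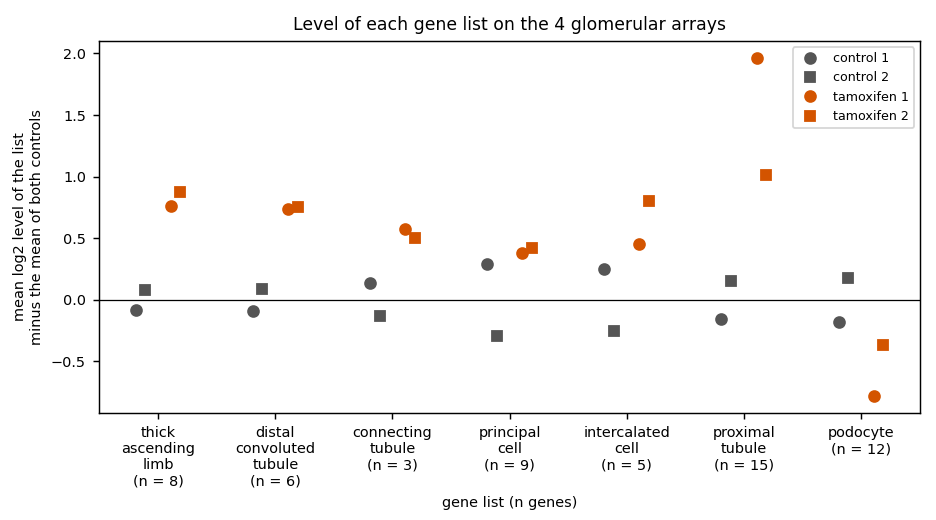
Mean log2 level of each segment's tested genes and of proximal tubule and podocyte markers on the 4 glomerular arrays, minus the mean of both controls, with 1 point per mouse. Treated mice (orange) lie above both controls in all 5 segments and in the proximal list, where treated mouse 1 stands highest, and below both controls in the podocyte list.

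In podocyte cultures tamoxifen was followed by no called change in these genes, and most of them could not be measured there. At day 4 none of 31 members was called (0.21% of all genes were), 4 had an unadjusted p under 0.05 (10.9% of all genes), and 22 were higher by mean (53.3% of all genes). On none of the 4 arrays were 17 of them well above background. Of the 14 measured on at least 1 array, 6 had both treated cultures above both mock cultures and 0 below, where 29.2% and 21.4% of all genes did so. At day 7 none of 31 was called (0.972% of all genes), 3 had an unadjusted p under 0.05 (12.2% of all genes), 19 were higher by mean (50.6% of all genes) and 17 were again unmeasured. Of the 14 measured, 5 lay above the mock cultures and 2 below, beside 22.4% and 18.9% of all genes.

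Trpm6 had the largest difference among members well above background on all 8 culture arrays. Its day 4 values were -4.71 and -4.35 without and -3.89 and -2.80 with tamoxifen, and its day 7 values -4.43 and -4.60 against -3.73 and -3.15. Treated cultures lay above mock cultures on both days, by 1.19 (SE 0.37, adjusted p = 0.287) and 1.07 (SE 0.37, adjusted p = 0.284), without a call. Gata2 read 0.84 and 0.96 against 1.20 and 1.15 at day 4 and 0.86 and 0.83 against 1.36 and 1.31 at day 7. Its groups did not overlap on either day, with differences of 0.27 (adjusted p = 0.795) and 0.49 (adjusted p = 0.503). Aqp4 read -4.28 and -4.09 against -4.08 and -3.84 at day 4 and -3.92 and -4.10 against -3.84 and -3.87 at day 7, differences of 0.23 and 0.15 (adjusted p = 0.648 and 0.758). For this gene too the treated values lay above the mock values, by margins smaller than the spread between the mock cultures.

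Scnn1a, called in glomeruli, differed in culture by less than its SE. It read -3.21 and -3.13 against -3.15 and -3.07 at day 4 and -3.14 and -3.17 against -3.18 and -3.12 at day 7, with differences of 0.06 and 0.00 (SE 0.14 each). All 8 values lay within a narrow band. Wnk4 read -2.57 and -2.23 against -2.88 and -2.52 at day 4 and -2.58 and -2.25 against -2.80 and -2.65 at day 7, differences of -0.30 and -0.31 (adjusted p = 0.678 and 0.619), overlapping at day 4 and lower without overlap at day 7. Aqp2 read -2.42 and -3.22 against -2.45 and -2.59 at day 4 and -1.87 and -2.76 against -2.09 and -2.35 at day 7, overlapping on both days. Pvalb read -3.14 and -2.93 against -2.81 and -2.37 and then -2.24 and -2.54 against -2.38 and -2.04, without overlap at day 4 only (difference 0.44, adjusted p = 0.835).

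Tfcp2l1 values lay farther apart within groups than the group means did. Its day 4 values were -2.62 and -1.003 without and -3.49 and -1.46 with tamoxifen, and -2.80 and -1.69 against -3.76 and -2.14 at day 7. In every group the culture numbered 1 was lower than the culture numbered 2, and mock and tamoxifen values overlapped on both days. Among cultures of the same number, however, the tamoxifen value was the lower one on both days. No label ties the numbers to a source, so overlap and the SE do not show that the gene was unchanged. The differences were -0.67 and -0.71 (SE 0.83 each, adjusted p = 0.858 and 0.828), and those of the other Tfcp2l1 probe -0.64 and -0.69. With a replicate term for the cultures 0 members were called on either day, where 269 and 503 of all genes were.

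**Figure D4:**
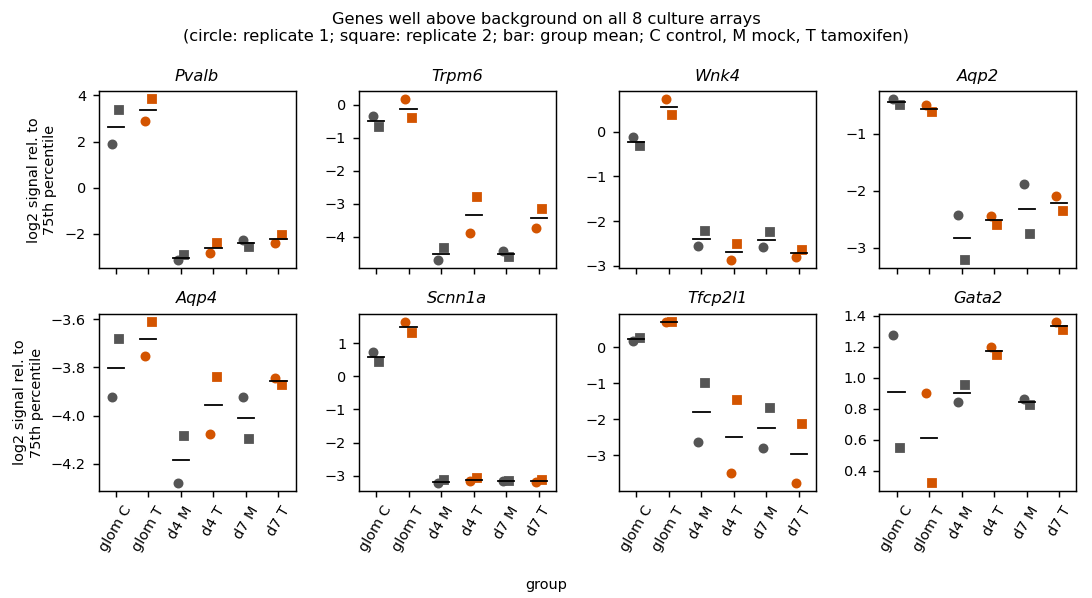
Log2 signal relative to the array's 75th percentile in each sample of the 6 groups for the 8 genes well above background on all 8 culture arrays, with circles for replicate 1, squares for replicate 2 and bars for group means; each panel has its own axis. Trpm6 and Gata2 lie higher in tamoxifen (orange) than in mock cultures on both days, the 8 culture values of Scnn1a lie between -3.21 and -3.07, and replicate 1 of Tfcp2l1 is the lower one in every culture group.

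Members measured on some culture arrays gave scattered values. Cldn19 was not well above background in mock cultures at day 4 and read -4.99 and -5.31 with tamoxifen, a bound of at least 1.43-fold (adjusted p = 0.445, measured means -5.15 and -5.99). At day 7 its values were -4.87 and -5.12 without against -5.22 and -5.36 with tamoxifen, lower without overlap (difference -0.29, adjusted p = 0.838). The difference between the responses of the 2 days was -1.14 (SE 0.51, adjusted p = 1). Bsnd and Foxi1 were each well above background on 1 culture array, the second day 4 tamoxifen culture, at -5.19 and -4.23. Hsd11b2 was so on 1, the first day 7 tamoxifen culture, at -5.53. Egf was measured on 4 culture arrays, between -5.61 and -5.33 where above background, and Slc8a1 on 5, between -5.67 and -5.25. Atp6v1g3 was above background on all 4 day 7 arrays, at -5.02 and -4.92 without and -4.99 and -4.62 with tamoxifen, which overlapped, and on no day 4 array. Atp6v0d2 was above background on 4 culture arrays, between -5.11 and -4.84.

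No member's tamoxifen response passed the test of a difference between day 7 and day 4, in which 0 of all 15226 genes were called. Unadjusted p was under 0.05 for 2 members, Bsnd and Sostdc1, and for 137 genes in all (0.9%). Bsnd was above background on 1 of the 8 culture arrays and Sostdc1 on none. The response in glomeruli minus the mean response in cultures was higher than 0 for 25 of 31 members (43.6% of all genes), with a median of 0.44 against -0.05 over all genes. None of 31 was called (1.08% of all genes were), and 6 had an unadjusted p under 0.05 (16.9% of all genes). The nearest were Scnn1a with a difference of responses of 0.86 (SE 0.17, adjusted p = 0.0615), Kcnj1 with 0.75 (SE 0.16, adjusted p = 0.0762), Slc12a1 with 1.34 (SE 0.30, adjusted p = 0.0815) and Wnk4 with 1.08 (SE 0.25, adjusted p = 0.0859). For Kcnj1 and Slc12a1 the culture side is below background throughout.

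Mock cultures held far less of most of these transcripts than control glomeruli. Of 31 members 27 were called lower, where 26% of all genes were, and none was called higher (37.6% of all genes were), with a median difference of -3.74 against 0.17 over all genes. Under scaling to array medians the median over all genes was 0.41, the calls over all genes went from 5727 higher and 3958 lower to 7151 and 3046, and 26 members were called lower and 1, Atp6v1g3, higher. Of 29 members well above background on all 4 glomerular arrays, 15 were above it on no culture array, against 4.1% of 13245 such genes. These 15 passed the filter through glomerular arrays alone, so their calls as lower in culture are no independent support.

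Called members came from every segment. Umod was lower in mock cultures by at least 1506-fold, Kcnj1 by at least 436-fold, Bsnd by at least 37.8-fold, Ppp1r1a by at least 33.5-fold, Slc12a1 by at least 5.34-fold and Tmem52b by at least 2.57-fold. In the distal convoluted tubule Slc12a3 was lower by at least 140.2-fold, Kcnj10 by at least 91.2-fold and Sostdc1 by at least 42.5-fold. Klk1 was lower by at least 598-fold and Calb1 by at least 6.38-fold. Among collecting duct genes Aqp3 was lower by at least 28.3-fold, Slc26a4 by at least 17.2-fold, Foxi1 by at least 6.68-fold, Atp6v1b1 by at least 5.65-fold, Scnn1b by at least 2.78-fold and Avpr2 by at least 1.84-fold. Hsd11b2, measured in 1 of 2 controls, was lower by 1.498-fold, which is no strict bound. The limma adjusted p of these 18 genes ran from 1.79e-09 (Umod) to 0.00512 (Hsd11b2). Of these 18 genes, 15 were above background on no culture array. Bsnd, Foxi1 and Hsd11b2 were so on 1 each, short of the 2 arrays that the filter asks for. All 18 thus passed the filter only by being bright in glomeruli, and these p-values describe a gap that the filter required.

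A further 9 called members were measured on at least 1 mock array. The difference was -9.58 for Egf (SE 0.14), -5.35 for Pvalb (SE 0.41), -4.03 for Trpm6 (SE 0.32), -3.74 for Scnn1a (SE 0.12) and -2.24 for Tfcp2l1 (SE 0.71). It was -2.18 for Wnk4 (SE 0.18), -2.12 for Aqp2 (SE 0.28), -0.89 for Cldn19 (SE 0.31) and -0.69 for Slc8a1 (SE 0.16). Cldn19, whose groups overlapped, had an adjusted p of 0.0355 and lost its call under scaling to medians (0.0961). The 4 members not called were Gata2 (difference -0.04, adjusted p = 0.887), Aqp4 (-0.29, adjusted p = 0.0644), Atp6v0d2 (-0.77, adjusted p = 0.168) and Atp6v1g3. Neither control and no day 4 mock culture measured Atp6v1g3, so its fold of 1.32 higher in culture is no strict bound (adjusted p = 0.132, measured means -5.45 and -5.88). Proximal tubule markers were called lower for 15 of 15 genes and podocyte markers for 10 of 12, with 1 called higher. Over all genes 26% were called lower and 37.6% higher. Slide, tissue and growth in culture cannot be told apart in this comparison.

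Second probes bear on which of these genes were present in culture at all. Both Tfcp2l1 probes were well above background on all 8 culture arrays. The other Pvalb probe was above background on the 4 glomerular arrays and on no culture array, where the probe used was above it on all 8, although the 2 probes gave like differences in glomeruli, 0.84 and 0.72. The other Aqp4 probe was likewise above background on 4 glomerular and 0 culture arrays against 8 for the probe used, and with it in place Aqp4 was called lower in mock cultures, by at least 1.37-fold (adjusted p = 0.0191, measured means -6.32 and -5.17). The other Slc8a1 probe was above background on no culture array, against 5 for the probe used. The probes of Pvalb, Aqp4 and Slc8a1 therefore disagree on culture. Neither Sostdc1 probe and neither Avpr2 probe was above background in culture, and the other Atp6v0d2 probe was so on no array. All other tested members had 1 probe.

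Between mock cultures of day 4 and day 7 none of 31 members was called (0.0328% of all genes were), 2 had an unadjusted p under 0.05 (6.48% of all genes), and the median difference was -0.02 against 0.01. Atp6v1g3 was below background at day 4 and above it at day 7, at least 1.62-fold higher at day 7 (adjusted p = 0.329, measured means -4.97 and -5.93). Cldn19 went the same way, at least 1.59-fold (adjusted p = 0.562, measured means -5.00 and -5.99). Neither gene overlapped between the days. Both differences lie between slides as well as between days.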

How the data were processed

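Each array's scanner file was written by Agilent Feature Extraction 11.5.1.1 (submitters' processing notes) and gives the intensity of every spot, linear and background-subtracted, per the file headers. The values in the table the authors deposited are log2 and equalled the ones used here up to a constant (0.094 to 0.121 per column). All of its columns belong to samples of the study (0 do not). Here, log2 of the processed signal was taken relative to the array's 75th percentile. Control spots and 83 to 134 outlier spots per array were dropped, and no spot was saturated. Spots of a probe were averaged. RefSeq accessions (GRCm38.p6) named 26581 of 39429 probes. Probes had to be well above background on 2 arrays, and the probe of highest mean stood for its gene. The limma 3.58.1 fit (R 4.3.3, two-sided) had 6 residual and 1.87 prior degrees of freedom, and its script was tested on simulated data. An exact test of 2 against 2 samples cannot go below p = 0.333. The number of arrays limits the precision. Alternatives covered background correction, scaling, filter, probe choice, variance, replicate block and left-out arrays. The members, lists, tests and named genes were chosen with earlier results of these data known. Named were members called or measured, and of the wider list up to 4 per segment, called ones by smallest p and otherwise the 2 of largest size.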

Additional observations from a re-analysis of the deposited data

Results flagged for a closer look

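For 2 members both treated mice lay above both control mice in glomeruli while both treated cultures lay below both mock cultures at day 7; the difference between these responses was not tested for a single day. Cldn19 had a difference of 1.22 in glomeruli against -0.29 in culture, a gap of 1.51, and Wnk4 had 0.77 against -0.31, a gap of 1.08. Against the mean response of both culture days the difference was tested, and the limma adjusted p was 0.331 for Cldn19 and 0.0859 for Wnk4. Groups of 2 are too small for a test of single outlying samples.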

How the results depend on the processing

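The count of members called in glomeruli, 3, became 0 with normexp background correction, 0 on the 4 glomerular arrays alone, 1 with a robust, trended variance and 9 with normexp fitted without non-uniform spots, and ran from 0 to 3 when 1 array was left out; members higher by mean then ran from 26 to 29. The 6 added members were Bsnd (adjusted p = 0.00501), Slc12a3 (0.0189), Ppp1r1a (0.0278), Wnk4 (0.0376), Sostdc1 (0.0424) and Aqp3 (0.0453). Members called for glomeruli minus cultures, 0 in the report, became 1 with quantile normalization (Kcnj1), 1 with a replicate block for cultures only (Wnk4) and 4 with normexp without non-uniform spots (Kcnj1, Bsnd, Wnk4 and Scnn1a), and 0 to 1 with 1 array left out. Non-uniform spots had shifted the normexp background mean of 3 arrays, to -29.49 from 18.82 for treated glomeruli 1, and to -257.7 from 15.95 and -25 from 17 for the treated day 4 arrays. Mock cultures against glomeruli gave 25 to 28 called members with 1 array left out.

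Some signs turned. At day 4 normexp gave 26 called members where 0 were called, and all 31 were higher against 22. The 9 that turned were Wnk4 and Tfcp2l1, not called, and Ppp1r1a (1.41), Egf (1.24), Klk1 (1.33), Scnn1b (1.33), Atp6v1b1 (1.36), Atp6v0d2 (1.20) and Slc26a4 (1.40), called. Without non-uniform spots these 7 were at 0.12 for Ppp1r1a, 0.11 for Egf, 0.075 for Klk1, 0.052 for Scnn1b, 0.13 for Atp6v1b1, 0.080 for Atp6v0d2 and 0.13 for Slc26a4. In the same setting the glomerular difference turned for Slc8a1 (-0.18), Aqp4 (-0.013), Scnn1b (-0.011) and Hsd11b2 (-0.095). The other Atp6v0d2 probe, above background on no array, gave -0.42 in glomeruli and 1.02 at day 4. Quantile normalization turned Umod (-0.074) and Kcnj1 (-0.0061) at day 4, normexp turned Kcnj1 for glomeruli minus cultures (-0.025), and median scaling turned Gata2 in mock cultures against glomeruli (0.20).

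With 1 array left out, glomerular differences ran from -0.090 to 0.29 for Umod, -0.0097 to 1.45 for Pvalb, -0.036 to 0.095 for Slc8a1, -0.0015 to 0.24 for Aqp4, -0.13 to 1.11 for Scnn1b, -0.38 to 0.97 for Hsd11b2, -0.66 to 0.066 for Gata2 and -0.037 to 0.41 for Atp6v1b1. At day 4 they ran from -1.21 to 0.19 for Ppp1r1a, -0.20 to 0.052 for Egf, -0.14 to 0.76 for Calb1, -0.042 to 0.37 for Slc8a1, -1.18 to 0.27 for Scnn1b, -0.56 to 0.36 for Atp6v1b1, -0.50 to 0.14 for Atp6v0d2 and -0.31 to 0.14 for Slc26a4. Gata2 in mock cultures against glomeruli ran from -0.40 to 0.33. Of these genes Umod, Kcnj1, Ppp1r1a, Klk1, Calb1, Scnn1b, Atp6v1b1 and Slc26a4 were below background on every culture array. Single members were followed for all 31 in glomeruli and in mock cultures against glomeruli, and elsewhere only where some setting called them, which was so for 26 at day 4, 5 for the response and 0 at day 7, so sign changes of the other culture differences are not counted. Of the values followed, 2144 kept direction and side of the threshold, 41 gained a call, 60 lost one and 44 turned sign, 20 of those with 1 array left out. The cause was not tested.

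Over all genes, the 399 calls in glomeruli became 5 with normexp, 810 without its non-uniform spots, 257 with no filter, 0 on 4 arrays and 79 to 494 with 1 array left out. The 32 at day 4 became 5041, 109, 48 with median scaling, 52 with quantile normalization, 82 with trended variance and 0 on 4 arrays, the 148 at day 7 became 44 with normexp and 1 on 4 arrays, and the 164 for the response became 0 with normexp, 487 without its non-uniform spots and 102 with no filter. With 1 array left out they ran from 7 to 79 at day 4, 9 to 237 at day 7 and 6 to 367 for the response.

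With 2 pairs per comparison and no label that ties numbers to a source, replicate numbers were taken as numbers only, although same-numbered cultures deviated together: the correlation was 0.395 to 0.551 among cultures, 0.21 between the glomerular groups and -0.038 to 0.085 between glomeruli and cultures. With the replicate block 3 members were called in glomeruli, and calls over all genes were 474 in glomeruli, 110 at day 4, 245 at day 7 and 254 for the response. With the block for cultures only they were 269 at day 4, 503 at day 7 and 442 for the response, and 4 members were called in glomeruli, Wnk4 (adjusted p = 0.0406) being added. The block for cultures, the second probes and normexp without non-uniform spots were chosen after seeing the data. A slide block could not be fitted apart from tissue and day. Signal over background limits what cultures can show for the dim genes.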
